A study of Mus musculus with 36 samples.

Results

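The 8 genes described here encode proteins that shape the transverse tubules (T-tubules) of heart muscle or hold them in place: Bin1, Dnm2, Mtm1, Jph1, Jph2, Speg, Cav3 and Dysf. They were listed by name rather than by a measured value, with earlier results of these data known, and were read by symbol in the gene tables of all 36 libraries. All 8 were found among the 55291 symbols of the tables, and all 8 were among the 19231 genes that passed the filter on low counts and were tested.

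The mice carried the transgenes TREDT960I (homozygous) and MHCrtTA (hemizygous), together called CUG960. TREDT960I holds interrupted CTG repeats within human DMPK sequence under a doxycycline-responsive promoter, and MHCrtTA supplies the activator from the cardiomyocyte-specific α-MHC promoter, so that dox induces the expanded CUG repeat RNA (CUGexp RNA) in cardiomyocytes. Left ventricle and atria were collected at 21 weeks of age from 6 cohorts, with 3 animals per cohort and tissue. The +dox cohort received dox chow from postnatal day 1 onward and no virus. The +/–dox cohort had dox from day 1 and returned to normal chow at 9 weeks. The –dox cohort carried both transgenes and never received dox. Dox was continued in the 3 vector cohorts (MBNL1, MBNL2 and MBNL1+MBNL2), which were given AAV9 by tail vein at 9 weeks, 12 weeks before collection, with tagged human MBNL cDNAs under the heart-specific human TNNT2 promoter. The comparison group of the vector cohorts was therefore +dox without virus, and no library of a control vector was analysed here. Mice of both sexes were used, with no female in the MBNL1+MBNL2 cohort. Replicates 1 and 2 of every cohort but MBNL1+MBNL2 carried library numbers of 1 set, here set A, and replicate 3 with all MBNL1+MBNL2 libraries those of another, here set B, so that MBNL1+MBNL2 has no library in set A and its fits with library set as a covariate take the set difference from the other cohorts.

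T-tubules are inward folds of the cardiomyocyte surface membrane that carry the action potential into the cell, where their calcium channels face the ryanodine receptors of the sarcoplasmic reticulum in structures called dyads. Membrane is bent into tubules by BAR-domain proteins and caveolins, pinched by dynamin and remodelled through phosphoinositides, while junctophilins tie the tubule to the sarcoplasmic reticulum. Several of these genes are known from inherited muscle disease: MTM1, DNM2, BIN1 and SPEG from centronuclear myopathy, CAV3 and DYSF from limb girdle muscular dystrophy.

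Total counts ranged from 55031987 to 97091184 per library. Ventricular markers summed to at most 247 CPM (counts scaled to the TMM-normalized size of each library) in any atrial library of the –dox and +dox cohorts and atrial markers to at most 568 CPM in the ventricular ones, against at least 9650 and 15152 CPM in the labelled tissue. The ventricle library of MBNL1 replicate 1 had the fewest genes above 0, 16885 against up to 24041, and the MBNL1 results in ventricle that passed are also given without it. Summed endothelial markers (4 genes) were higher in –dox than in +dox libraries of both tissues, 656 to 757 against 488 to 521 CPM in ventricle and 504 to 539 against 387 to 410 CPM in atria. In atria the 3 ventricular markers had a median log2 fold change against +dox of 1.83 in –dox, 1.63 in +/–dox and 2.06 in MBNL1. It was 1.36 in MBNL2 and −0.34 in MBNL1+MBNL2. The 4 red blood cell markers had a median of 1.62 in –dox ventricle and 0.72 in –dox atria. In these bulk samples fewer cells of a type and less RNA per cell cannot be told apart, and the part of these shifts in the results below was not tested.

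The 8 genes spanned a wide range of abundance. In TPM, a measure corrected for transcript length that allows genes to be compared, the ranges over all 36 libraries were 99.9 to 180 for Jph2, 45.4 to 86.2 for Cav3, 31.4 to 69.6 for Speg and 22.1 to 51.0 for Dnm2. Dysf had 20.2 to 35.7 TPM, Mtm1 7.43 to 13.3 TPM, Jph1 5.78 to 11.2 TPM and Bin1 2.70 to 6.19 TPM. In +dox ventricle the order of mean TPM was Jph2, Cav3, Speg, Dnm2, Dysf, Mtm1, Jph1 and Bin1, and the libraries of neighbouring genes overlapped between Speg and Dnm2 and were otherwise apart. In +dox atria the order was the same, with overlap between Cav3 and Speg. The order of adjacent genes differed in the cohorts without dox. Jph1 stood above Mtm1 in –dox ventricle with no overlap between the genes' libraries, with mean levels of 9.95 and 8.60 TPM, whereas in +dox ventricle Mtm1 stood above Jph1, with 11.2 and 6.47 TPM.

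**Figure D1:**
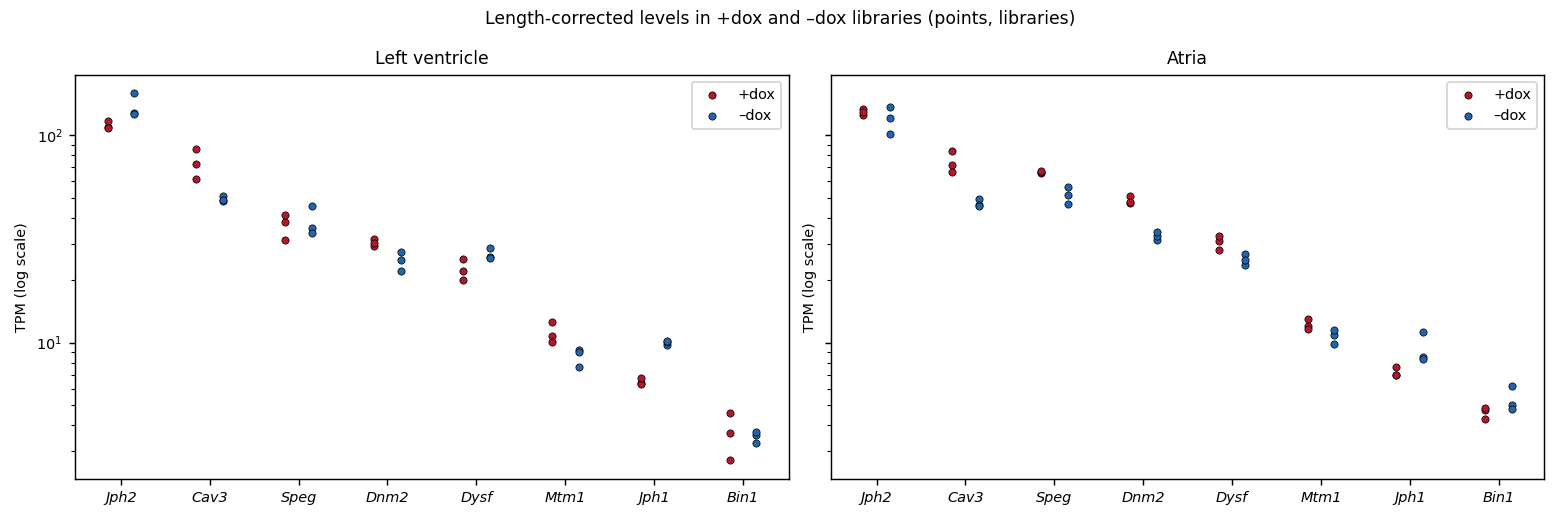
TPM (log scale) of the 8 genes in each +dox (red) and –dox (blue) library of left ventricle and atria, genes ordered by level. Jph2 was highest and Bin1 lowest in both tissues, and Mtm1 and Jph1 change places between +dox and –dox ventricle.

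The first question was how these transcripts differed with and without CUGexp RNA, addressed by comparing –dox with +dox. The –dox and +/–dox cohorts differ from +dox in doxycycline as well as in CUGexp RNA. No dox-fed mice without the repeats were analysed here, so effects of the drug and of the RNA cannot be told apart. Of the 8 genes, 7 differed between –dox and +dox ventricle by the quasi-likelihood test of edgeR (p adjusted over all genes tested by Benjamini-Hochberg), 4 higher and 3 lower in –dox, against 20.9% of all genes. Jph1, Jph2, Speg and Dysf were higher without dox, Cav3, Dnm2 and Mtm1 were lower, and Bin1 did not pass the test. The changes were small: with the further requirement of a 1.5-fold change, 1 of 8 (Jph1) was called, against 7.60% of all genes. The median log2 fold change was 0.17 over the 8 genes and 0.01 over all genes tested.

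In atria, 3 of 8 differed between –dox and +dox, Jph1 higher and Cav3 and Dnm2 lower in –dox, against 15.9% of all genes. With the 1.5-fold requirement 1 gene, Cav3, was called, against 5.23% of all genes. The atrial median log2 fold change was −0.12 over the 8 genes and 0.03 over all genes. In both tissues all comparisons with +dox share the same 3 +dox libraries, so the values of different cohorts are not independent of each other.

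The +/–dox cohort, which lost the inducer at 9 weeks, gave similar values. In ventricle 7 of 8 passed the adjusted p, 4 higher and 3 lower than in +dox, against 21.8% of all genes, and 1 of 8 (Speg) was called with the fold requirement, against 6.60%. In atria 3 of 8 passed, 1 higher and 2 lower, against 12.6% of all genes, and 0 were called with the fold requirement, against 3.99%. At an unadjusted p under 0.05 the atrial count was 5, against 25.2% of all genes, and DESeq2 passed 5 by the adjusted p, against 17.8%, and called 0 with the fold requirement. Between –dox and +/–dox no gene of the 8 passed in ventricle (0.0572% of all genes did) or in atria (0.0208%). Neither an unadjusted p under 0.05 (8.25% and 4.72% of all genes) nor DESeq2 picked any of the 8 in those comparisons either (0 in each tissue).

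Within library set A, a restriction chosen after seeing the data that leaves 2 animals per cohort, 4 of the 8 genes passed in –dox and 4 in +/–dox ventricle, namely Jph1, Speg, Cav3 and Dnm2, against 19.3% and 19.4% of all genes in that set. In atria 4 passed in –dox, against 15.1% of all genes, and 5 in +/–dox, against 12.9%, Jph1, Cav3, Dnm2 and Dysf in both and Speg in +/–dox. The ventricular changes of Jph2 (0.19 in –dox and 0.29 in +/–dox, adjusted p = 0.337 and 0.128), Dysf (0.24 and 0.19, adjusted p = 0.0768 and 0.157) and Mtm1 (−0.16 and −0.24, adjusted p = 0.238 and 0.0692) kept their direction and did not pass within set A. Those of Cav3 were −0.62 and −0.50 there (adjusted p = 0.000121 and 0.000895). Set B held 1 library of each of these cohorts and tissues and gave no test. The study lists the 1 female of each of these cohorts last. Set A may therefore hold males only, with sex and library set coinciding, which the labels do not say.

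**Figure D2:**
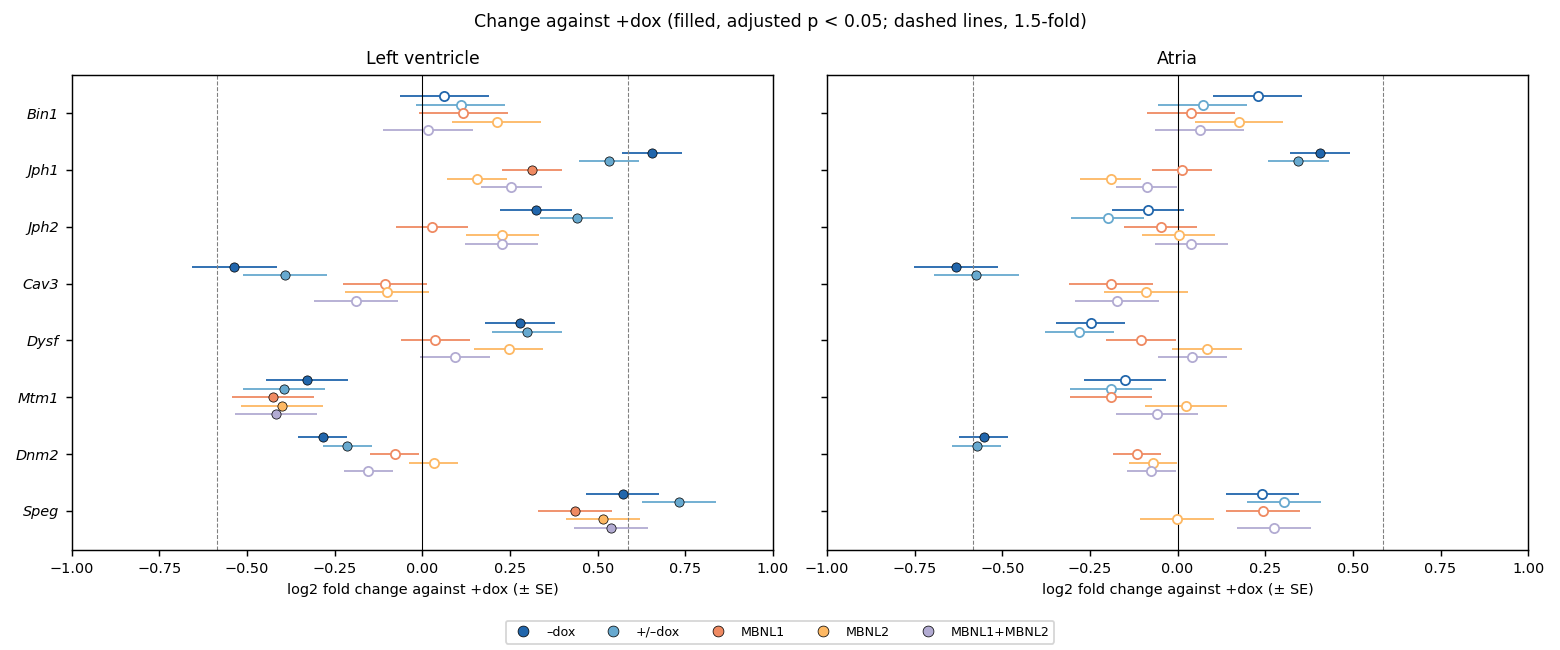
Log2 fold change of each gene against +dox (± SE, edgeR) in left ventricle and atria, 1 colour per cohort, with filled points for adjusted p under 0.05 and dashed lines at 1.5-fold. In ventricle the –dox and +/–dox points of 7 genes are filled, whereas in atria those of Jph1, Cav3 and Dnm2 are, and no vector cohort is filled in atria.

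Bin1 (ENSMUSG00000024381, GRCm38 chr18:32377230-32435737, plus strand) encodes amphiphysin 2, the BAR-domain protein that bends membrane into tubules. Its level was 6.42, 4.10 and 5.07 CPM in the +dox ventricle libraries (replicates 1 to 3) and 5.59, 5.22 and 5.47 CPM in –dox ventricle, so that the –dox values lay inside the +dox range. In log2 units the difference was 0.06 (SE 0.13, adjusted p = 0.785). In atria Bin1 was at 5.03, 4.45 and 4.54 CPM with dox and at 5.49, 5.02 and 5.91 CPM in –dox, where the log2 fold change of 0.23 (SE 0.13, adjusted p = 0.237) did not pass. Between 255 and 565 reads per ventricle library stood behind these values, the fewest of the 8 genes.

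Dnm2 (ENSMUSG00000033335, GRCm38 chr9:21424908-21507759, plus strand) encodes dynamin 2, the GTPase that constricts and cuts membrane tubules. The 3 +dox ventricle libraries had 91.1, 88.6 and 81.3 CPM, and those of –dox had 74.6, 66.4 and 73.3 CPM. All –dox libraries were thus below all +dox libraries, and the log2 fold change was −0.28 (SE 0.07, adjusted p = 0.00337). The +/–dox libraries (72.9, 72.6 and 79.5 CPM) were also all below +dox, with a log2 fold change of −0.21 (SE 0.07, adjusted p = 0.0250) that no longer passed without +dox replicate 1 (adjusted p = 0.117) or replicate 2 (0.0722), or without +/–dox replicate 1 (0.0932) or 2 (0.101). It did not pass on log2(TPM + 1) either (−0.19, limma adjusted p = 0.148) or with the 18 ventricle libraries alone (adjusted p = 0.0650).

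In atria Dnm2 had 98.2, 101 and 87.4 CPM with dox, 64.6, 66.9 and 63.8 CPM in –dox and 61.6, 66.0 and 64.9 CPM in +/–dox. The dox-free libraries clustered within a few CPM of each other and far below +dox. edgeR gave a log2 fold change of −0.55 (SE 0.07, adjusted p = 1.05e-06) in –dox and −0.57 (SE 0.07, adjusted p = 7.98e-07) in +/–dox. These were the smallest adjusted p of the 8 genes in atria, although both changes stayed just under 1.5-fold. The Dnm2 gene overlaps Mir199a-1 and Tmed1 on the other strand, and the strand setting of the counting is not given in the sources used here.

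To show the sequence before the start of a gene whose level differed in both tissues, the 250 bases upstream of the Dnm2 start are printed from RefSeq (GRCm38.p6, chr9:21424658-21424907, plus strand), with motif matches in capitals. Windows from 250 bases before to 50 after each start were searched on both strands for 5 motifs. These were the E-box, spelled CANNTG, the muscle motif MCAT, spelled as CATTCC, the factor motif of GATA proteins, spelled as AGATAA, and the MEF2 and CArG motifs. Of all 32851 such windows, 72.3% held an E-box, 14.7% MCAT, 11.2% GATA, 0.6% MEF2 and 1.6% CArG. The Dnm2 window held 1 E-box, 53 bases before the start.
Dnm2: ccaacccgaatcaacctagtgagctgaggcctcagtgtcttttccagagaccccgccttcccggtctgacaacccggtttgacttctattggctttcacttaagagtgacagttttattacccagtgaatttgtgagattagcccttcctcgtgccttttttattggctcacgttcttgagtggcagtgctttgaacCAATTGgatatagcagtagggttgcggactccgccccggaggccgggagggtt

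Mtm1 (ENSMUSG00000031337, GRCm38 chrX:71210767-71315691, plus strand) encodes myotubularin, a phosphoinositide 3-phosphatase. The +dox ventricle libraries had 30.7, 30.1 and 33.4 CPM and the –dox libraries 27.3, 27.0 and 20.7 CPM, with no overlap. The log2 fold change was −0.33 (SE 0.12, adjusted p = 0.0434) in –dox and −0.39 (SE 0.12, adjusted p = 0.0144) in +/–dox. Replicate 3 was the lowest library of both dox-free cohorts, and the –dox change did not pass without it (−0.21, adjusted p = 0.273), nor without any 1 of the +dox libraries (adjusted p = 0.0577 to 0.136), with RLE size factors (0.0599) or with the 18 ventricle libraries alone (0.0554). The +/–dox change likewise did not pass without +/–dox replicate 3 (−0.30, adjusted p = 0.112) or +dox replicate 3 (−0.35, adjusted p = 0.0608).

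In the vector cohorts ventricular Mtm1 was also below +dox. It had 23.9, 23.0 and 23.2 CPM in MBNL1, 24.3, 24.5 and 22.6 CPM in MBNL2 and 20.5, 23.0 and 26.9 CPM in MBNL1+MBNL2, all below every +dox library. The log2 fold changes were −0.43, −0.40 and −0.42 (SE 0.12 each; adjusted p = 0.0202, 0.0337 and 0.0231), and against +/–dox they were −0.03, −0.00 and −0.02 (adjusted p = 0.926, 0.993 and 0.963). None of these 3 changes passed without +dox replicate 3 (adjusted p = 0.0823, 0.139 and 0.0867) and on leaving out some other libraries as well, up to adjusted p = 0.174. Without MBNL1 replicate 1 the MBNL1 change was −0.44 (adjusted p = 0.0441). On log2(TPM + 1) the MBNL2 change did not pass (−0.23, limma adjusted p = 0.120), nor did that of MBNL1+MBNL2 with library set as a covariate (−0.31, adjusted p = 0.0531). With the 18 ventricle libraries alone both missed the threshold (adjusted p = 0.0645 and 0.0512). In atria Mtm1 had 22.8 to 24.6 CPM with dox and 18.2 to 23.4 CPM in –dox, and the log2 fold change of −0.15 (SE 0.12, adjusted p = 0.429) did not pass.

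**Figure D3:**
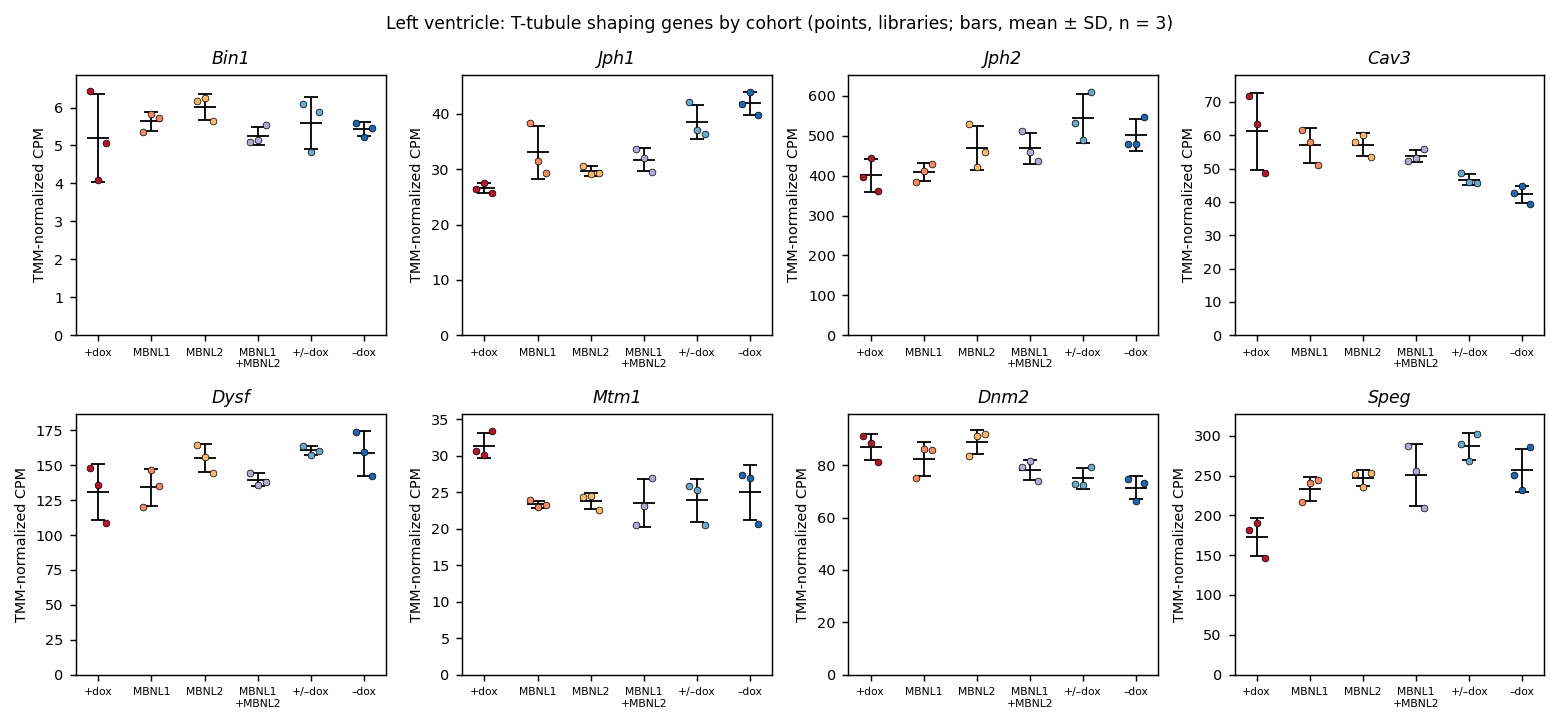
TMM-normalized CPM of the 8 genes in each left ventricle library by cohort, with bars at the mean ± SD (n = 3). Jph1, Jph2 and Speg lie higher and Cav3, Mtm1 and Dnm2 lower in –dox and +/–dox than in +dox, and Mtm1 in all vector cohorts lies below +dox.

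Jph1 (ENSMUSG00000042686, GRCm38 chr1:16964560-17097889, minus strand) encodes junctophilin 1, which spans from the T-tubule to the sarcoplasmic reticulum and is best known from skeletal muscle. The ventricle libraries had 26.5, 27.5 and 25.8 CPM with dox, 41.8, 43.9 and 39.8 CPM in –dox and 42.0, 37.1 and 36.3 CPM in +/–dox. Every dox-free library lay well above every +dox library. The mean rose from 26.6 ± 0.894 to 41.9 ± 2.06 CPM (SD, n = 3 each) between +dox and –dox. On the log2 scale the change was 0.65 (SE 0.09, adjusted p = 1.58e-06) in –dox and 0.53 (SE 0.09, adjusted p = 3.66e-05) in +/–dox, and on leaving out any 1 library that of –dox ranged from 0.62 to 0.69.

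In atria Jph1 had 20.8, 19.7 and 20.1 CPM with dox, 25.3, 24.7 and 30.3 CPM in –dox and 26.5, 26.5 and 24.0 CPM in +/–dox. The groups again did not overlap, with –dox replicate 3 the highest library. In log2 units the difference was 0.41 (SE 0.09, adjusted p = 0.00109) in –dox and 0.34 (SE 0.09, adjusted p = 0.00657) in +/–dox. The genes whose 12 group means were most like those of Jph1, after the mean of each tissue was removed, were Tnrc6c, Lmbrd1 and Zbtb39 (Pearson r 0.989, 0.987 and 0.986 over 12 groups, a description chosen from 8696 genes).

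Jph2 (ENSMUSG00000017817, GRCm38 chr2:163336242-163397993, minus strand) encodes junctophilin 2, the main cardiac member of the family and the most abundant of the 8 transcripts. In ventricle it had 396, 444 and 362 CPM with dox, 479, 480 and 547 CPM in –dox and 532, 490 and 610 CPM in +/–dox. All dox-free libraries were above all +dox libraries. The log2 fold change was 0.32 (SE 0.10, adjusted p = 0.0241) in –dox, which did not pass without +dox replicate 1 (adjusted p = 0.0742) or 3 (0.126) or without –dox replicate 3 (0.132), nor on log2(TPM + 1) (0.29, limma adjusted p = 0.128), and 0.44 (SE 0.10, adjusted p = 0.00247) in +/–dox. In atria it had 347, 308 and 299 CPM with dox, 314, 263 and 322 CPM in –dox and 287, 271 and 273 CPM in +/–dox. The atrial values did not rise: the –dox libraries overlapped +dox (log2 fold change −0.08, SE 0.10, adjusted p = 0.643), and the +/–dox libraries were all below +dox without passing the test (−0.20, SE 0.10, adjusted p = 0.229).

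Cav3 (ENSMUSG00000062694, GRCm38 chr6:112459505-112472872, plus strand) encodes caveolin 3, the muscle caveolin found in caveolae and in forming T-tubules. Its ventricle libraries had 71.6, 63.3 and 48.8 CPM with dox, 42.7, 44.6 and 39.4 CPM in –dox and 48.6, 46.0 and 45.5 CPM in +/–dox. The +dox libraries were spread widely, and the lowest of them stood only just above the highest of +/–dox. The fitted log2 change was −0.54 (SE 0.12, adjusted p = 0.00164) in –dox and −0.39 (SE 0.12, adjusted p = 0.0182) in +/–dox. The +/–dox change did not pass without +dox replicate 1 (−0.26, adjusted p = 0.164), and adjusted p was 0.0558 to 0.0603 without +dox replicate 2 or +/–dox replicate 2 or 3.

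In atria Cav3 had 50.5, 41.4 and 36.2 CPM with dox, 29.7, 27.8 and 25.1 CPM in –dox and 27.7, 29.6 and 28.7 CPM in +/–dox. All dox-free libraries were below all +dox libraries, and the mean fell from 42.7 ± 7.22 to 27.5 ± 2.30 CPM (SD, n = 3 each) in –dox. On the log2 scale the change was −0.63 (SE 0.12, adjusted p = 0.000410) in –dox and −0.57 (SE 0.12, adjusted p = 0.00150) in +/–dox. On leaving out any 1 library the –dox change ranged from −0.74 to −0.50 and passed the adjusted p throughout, but it fell under 1.5-fold without +dox replicate 1 or –dox replicate 3. The genes with group means most like those of Cav3 were Usp10, Hagh and Cdk16 (Pearson r 0.995, 0.990 and 0.988 over 12 groups).

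The Cav3 promoter is shown because the transcript was lower in –dox in both tissues. The 250 bases before its start (RefSeq, GRCm38.p6, chr6:112459255-112459504, plus strand) hold 2 E-boxes, 174 and 106 bases before the start, in capitals, and an MCAT match lies after the start.
Cav3: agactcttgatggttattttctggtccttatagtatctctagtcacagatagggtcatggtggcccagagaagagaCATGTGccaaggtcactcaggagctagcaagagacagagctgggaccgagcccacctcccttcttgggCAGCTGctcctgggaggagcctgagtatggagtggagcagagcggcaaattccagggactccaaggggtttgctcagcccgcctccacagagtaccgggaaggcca

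Dysf (ENSMUSG00000033788, GRCm38 chr6:84008590-84211060, plus strand) encodes dysferlin, a ferlin that takes part in membrane repair and T-tubule upkeep. In ventricle it had 148, 136 and 109 CPM with dox, 174, 160 and 142 CPM in –dox and 164, 158 and 160 CPM in +/–dox. The –dox libraries overlapped +dox and those of +/–dox did not. The log2 fold change was 0.28 (SE 0.10, adjusted p = 0.0435) in –dox and 0.30 (SE 0.10, adjusted p = 0.0297) in +/–dox, and neither passed without +dox replicate 3 (0.16 and 0.18, the smaller adjusted p being 0.240). The –dox change also did not pass without +dox replicate 2 (adjusted p = 0.0620) or –dox replicate 1 (0.228) or 2 (0.0901), without the filter on low counts (0.0714) or with the 18 ventricle libraries alone (0.0550), nor the +/–dox change without any 1 of its own libraries (adjusted p = 0.0581 to 0.0887).

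In atria the Dysf values ran the other way, with 131, 131 and 106 CPM with dox, 114, 99.7 and 96.1 CPM in –dox and 99.2, 104 and 99.4 CPM in +/–dox. edgeR gave a log2 fold change of −0.25 (SE 0.10, adjusted p = 0.0879) in –dox and −0.28 (SE 0.10, adjusted p = 0.0608) in +/–dox, neither past the threshold. They passed in 7 and 9 of 16 other settings, among them log2(TPM + 1) (−0.27, adjusted p = 0.0301, and −0.32, adjusted p = 0.0114) and library set as a covariate (adjusted p = 0.0312 and 0.0191), and DESeq2 passed the +/–dox change (adjusted p = 0.0386). The atrial –dox change passed without +dox replicate 3 (−0.35, adjusted p = 0.0215) or without –dox replicate 1 (−0.33, adjusted p = 0.0496), and that of +/–dox without +dox replicate 3 (−0.38, adjusted p = 0.0146). The Dysf gene overlaps Gm7498 on its own strand and Gm33024 and Gm15475 on the other.

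An interaction term asked whether the –dox effect was the same in ventricle and atria. None of the 8 genes passed (0 by edgeR, against 1.03% of all genes). At an unadjusted p under 0.05 the count was 5, against 11.0% of all genes, and DESeq2 passed 1, against 2.58%. Dysf had the largest difference between ventricle and atria, 0.53 (SE 0.14, adjusted p = 0.0586), followed by Jph2 with 0.41 (SE 0.15, adjusted p = 0.211). A replicate block here is a term for each replicate number shared by all cohorts and does not pair the tissues of an animal. The Dysf value depended on the setting: with that block it passed (0.53, adjusted p = 0.0258). It also passed with DESeq2 (adjusted p = 0.0137) and in 6 further settings (0.0112 to 0.0494), and did not pass without the filter on low counts (0.0694). Nor did the Dysf difference pass without ventricle +dox replicate 2 or 3 (0.0797 and 0.170) or ventricle –dox replicate 1 or 2 (0.203 and 0.0957). The same held without atrial +dox replicate 1 or 2 (0.177 and 0.181) or atrial –dox replicate 2 or 3 (0.149 and 0.150). Without any other 1 of these libraries it passed (0.0192 to 0.0466).

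**Figure D4:**
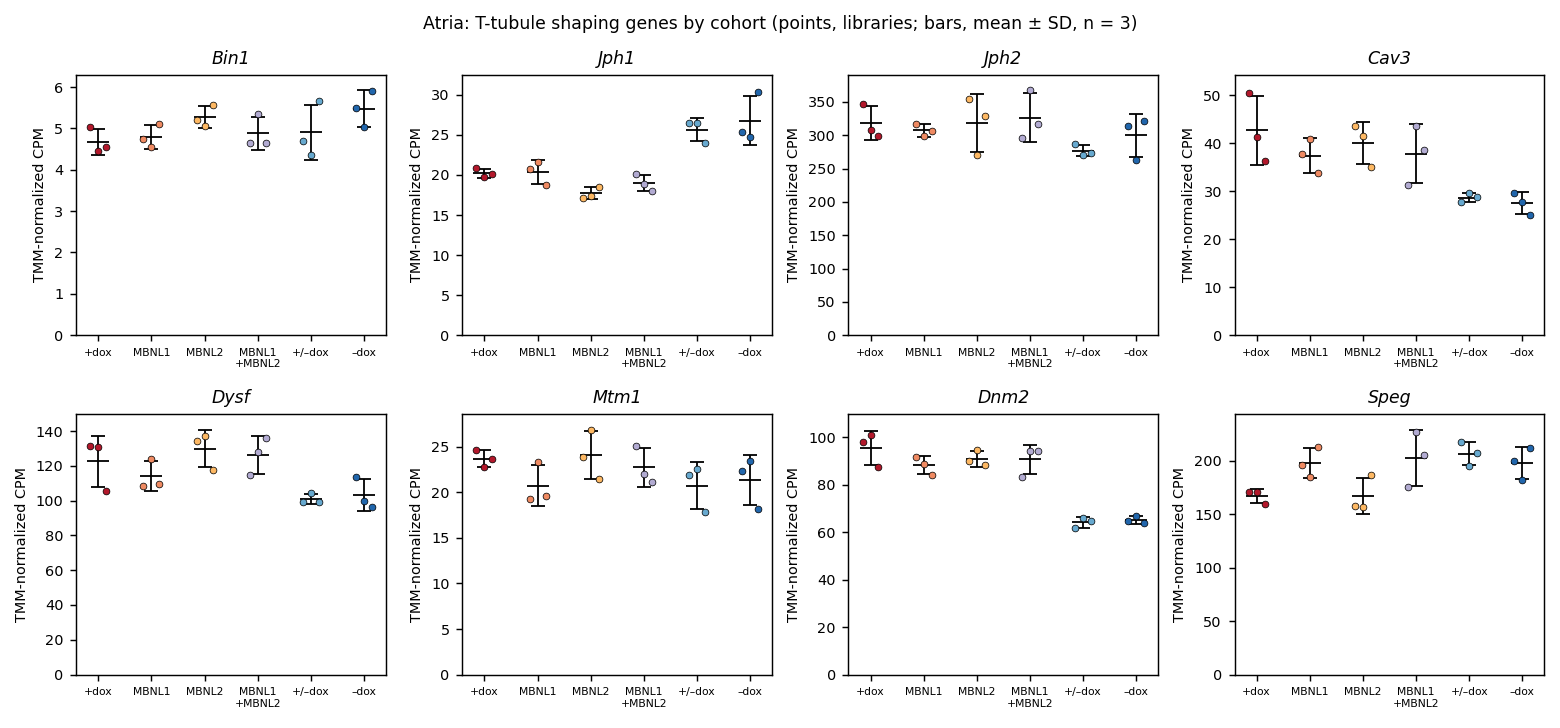
TMM-normalized CPM of the 8 genes in each atrial library by cohort, with bars at the mean ± SD (n = 3). Cav3 and Dnm2 lie lower and Jph1 higher in –dox and +/–dox than in every other cohort except where single Cav3 libraries of MBNL1+MBNL2 come close.

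Speg (ENSMUSG00000026207, GRCm38 chr1:75375297-75432320, plus strand) encodes a large striated muscle kinase that binds junctophilin 2 and myotubularin. In ventricle it had 182, 190 and 146 CPM with dox, 251, 232 and 286 CPM in –dox and 289, 268 and 303 CPM in +/–dox. All dox-free libraries were above all +dox libraries. The fitted log2 change was 0.57 (SE 0.11, adjusted p = 0.000185) in –dox, which ranged from 0.46 to 0.64 on leaving out any 1 library, and 0.73 (SE 0.11, adjusted p = 8.07e-06) in +/–dox. In atria it had 171, 171 and 160 CPM with dox, 200, 182 and 212 CPM in –dox and 217, 195 and 207 CPM in +/–dox. The atrial groups did not overlap, but the log2 fold changes of 0.24 (SE 0.10, adjusted p = 0.117) and 0.30 (SE 0.10, adjusted p = 0.0530) did not pass. The +/–dox change passed with DESeq2 (adjusted p = 0.0345), with the 18 atrial libraries alone (0.0341) and with library set as a covariate (0.0433).

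The counts and the length-corrected levels of Speg did not move together. In ventricle the mean was 36.9 ± 4.95 TPM with dox and 38.4 ± 6.19 TPM in –dox (SD, n = 3 each), and on the log2(TPM + 1) scale limma gave a difference of 0.05 (adjusted p = 0.852), and of 0.28 (adjusted p = 0.136) in +/–dox. In atria it was 66.5 ± 0.533 TPM with dox and 51.6 ± 4.76 TPM in –dox, which on that scale is a difference of −0.37 (adjusted p = 0.0441). The atrial +/–dox difference was −0.29 on that scale (adjusted p = 0.136). The atrial direction of Speg is thus opposite on the count scale, where both dox-free means were higher, and on the TPM scale, where they were lower. The values that differ between these scales are the lengths assigned to the gene in each library.

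The expected count of a gene divided by its TPM is, after a factor per library, the mean effective length of the transcripts to which RSEM assigned the gene's reads, here scaled to kilobases (kb) on 349 genes with a single transcript. For Speg this length was 5.64, 5.25 and 5.94 kb in the +dox ventricle libraries, 7.99, 7.70 and 7.85 kb in –dox and 7.46, 7.67 and 7.78 kb in +/–dox. In atria it was 4.27, 4.44 and 4.43 kb with dox, 6.36, 6.43 and 6.85 kb in –dox and 6.40, 6.15 and 6.52 kb in +/–dox. In each tissue every dox-free library had a longer value than every +dox library, by 39.9% in –dox ventricle and 49.4% in –dox atria at the mean.

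By limma on the log2 length over 12680 genes, the Speg ratio of –dox to +dox was 0.48 (SE 0.05, adjusted p = 1.35e-07) in ventricle and 0.58 (SE 0.05, adjusted p = 6.29e-09) in atria. That of +/–dox was 0.45 (adjusted p = 4.63e-07) and 0.53 (adjusted p = 3.06e-08). By the size of the change in –dox, Speg stood at place 20 in ventricle and place 9 in atria of the 12680 genes, whereas none of the other 7 genes stood above place 1132. On leaving out any 1 library the ratio ranged from 0.44 to 0.52 in ventricle and from 0.54 to 0.60 in atria. The interaction between tissue and –dox was −0.09 (adjusted p = 0.984).

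Of the 8 genes, the effective length of 2 (Speg and Dnm2) changed between –dox and +dox in ventricle, against 1.35% of all genes, and of the same 2 in atria, against 1.24%. In +/–dox it was again 2 in each tissue, against 1.62% in ventricle and 1.19% in atria. The Dnm2 change was slight, from 3.43 to 3.37 kb in ventricle (log2 ratio −0.03, adjusted p = 0.00129) and to 3.39 kb in atria (−0.02, adjusted p = 0.0280). The Dnm2 call was lost in –dox atria without +dox replicate 1 or 2 or –dox replicate 2 or 3 (adjusted p = 0.149 to 0.239), in +/–dox atria without any 1 of 5 libraries (0.0704 to 0.353) and in +/–dox ventricle without +dox or +/–dox replicate 1 (0.0570 and 0.0748).

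The mean Speg length of each vector cohort lay between that of +dox and those of the dox-free cohorts, and in ventricle MBNL1+MBNL2 replicate 1 lay above some dox-free libraries. In ventricle they were 7.12, 7.18 and 6.73 kb in MBNL1, 6.86, 6.68 and 6.47 kb in MBNL2 and 7.75, 7.29 and 7.29 kb in MBNL1+MBNL2. In atria they were 5.23, 5.25 and 5.72 kb, 5.25, 4.79 and 5.30 kb, and 5.47, 5.94 and 6.01 kb in the same order. In both tissues every library of these cohorts had a longer value than every +dox library, and the MBNL2 mean was the shortest and the MBNL1+MBNL2 mean the longest of the vector cohorts. By limma no pair of vector cohorts differed past the threshold in Speg length, MBNL1+MBNL2 and MBNL2 having an adjusted p of 0.687 in ventricle and 0.518 in atria.

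In ventricle the Speg log2 ratio to +dox was 0.33 in MBNL1 (adjusted p = 0.000277), 0.25 in MBNL2 (0.00854) and 0.41 in MBNL1+MBNL2 (8.95e-06), SE 0.05 each. Speg was the 1 gene of the 8 with a changed length in each, against 22.8% of all genes in MBNL1, 0.244% in MBNL2 and 0.678% in MBNL1+MBNL2. The high MBNL1 share rests on replicate 1: without that library it was 0.820%, and the Speg ratio was 0.32 (adjusted p = 0.00329). The MBNL2 ratio did not pass without +dox replicate 2 (0.21, adjusted p = 0.109) or MBNL2 replicate 1 (0.24, adjusted p = 0.0691).

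In atria the ratio was 0.30 in MBNL1 (adjusted p = 0.00205), 0.22 in MBNL2 (0.263) and 0.41 in MBNL1+MBNL2 (2.07e-05). Speg was again the 1 gene called in MBNL1, against 0.0710% of all genes, and in MBNL1+MBNL2, against 0.126%. In MBNL2 0 of 8 were called by limma, against 0.0158%, with an unadjusted p of 6.23e-05 for Speg. The MBNL1 call was lost without MBNL1 replicate 3 (0.26, adjusted p = 0.0529), and that of MBNL2 was gained without MBNL2 replicate 2 (0.27, adjusted p = 0.0490). Set against +/–dox atria, the Speg ratio was −0.23 in MBNL1 (adjusted p = 0.0119), −0.31 in MBNL2 (0.000281) and −0.13 in MBNL1+MBNL2 (0.550). In ventricle the same ratios were −0.12 (adjusted p = 0.199), −0.19 (0.0598) and −0.04 (0.980).

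**Figure D5:**
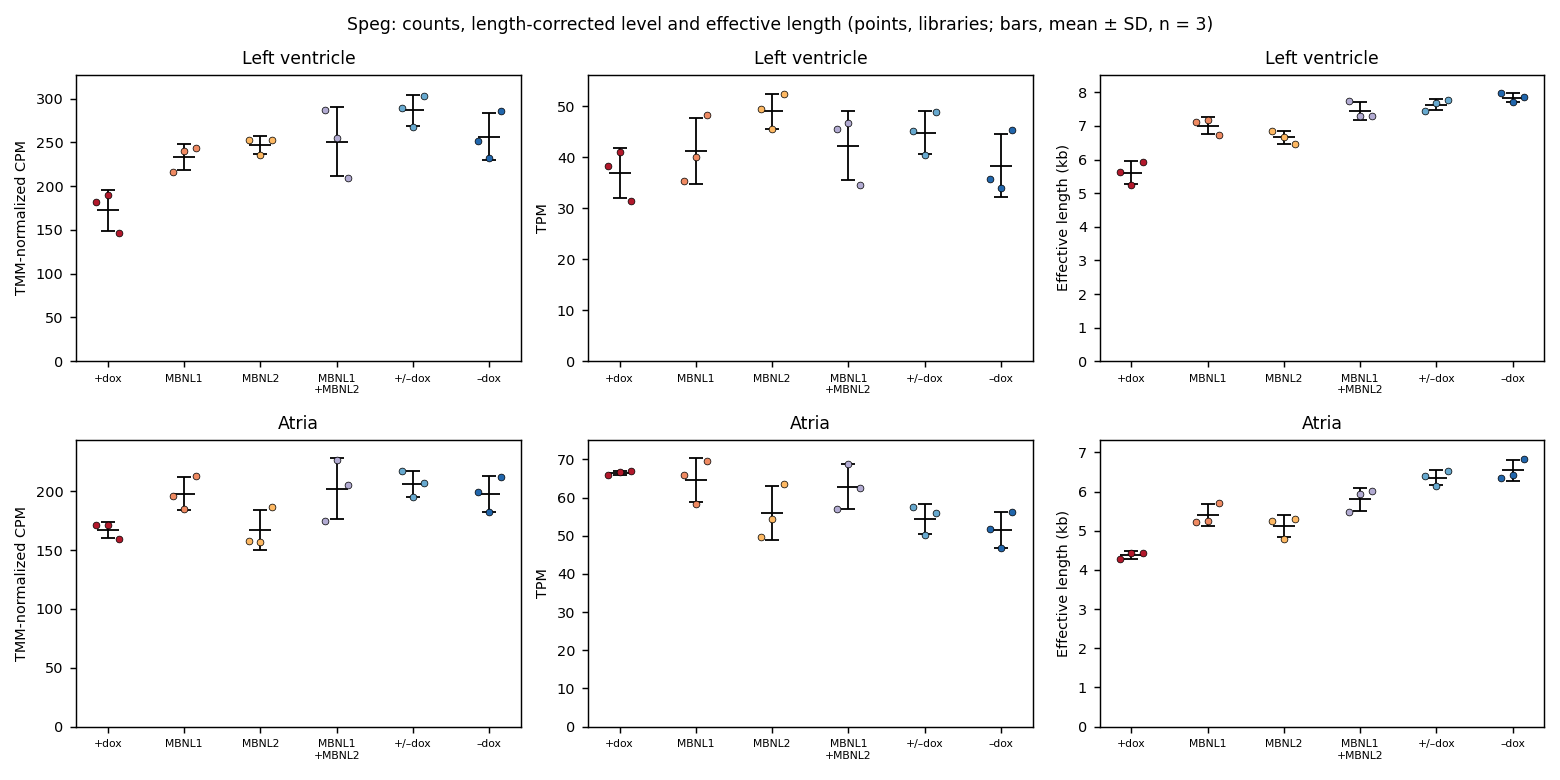
Speg in each library by cohort: TMM-normalized CPM (left), TPM (middle) and effective length in kb (right) for ventricle (top) and atria (bottom), with bars at the mean ± SD (n = 3). Effective length is lowest in +dox in both tissues and highest in –dox, while the –dox TPM libraries overlap those of +dox in ventricle and lie below them in atria.

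Annotated Speg transcripts (GENCODE M21, GRCm38) differ in their starts and in their exons. The study names another GENCODE release for its mapping, so its transcripts may not be the same as those given here. Speg-201 has 41 exons and 10.8 kb and starts at 75375297, Speg-205 has 11 exons and 3.39 kb and starts at 75382114, Speg-211 has 39 exons and 9.88 kb and starts at 75385610, and Speg-204 has 5 exons and 0.83 kb and starts at 75400085. Of 15 transcripts 8 are protein coding. Which of them gained or lost reads was not tested, since the tables hold genes only, and a shift in effective length can also come from exons that differ between transcripts of the same start. Gm15178 overlaps Speg on the other strand.

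The 250 bases before each of these 4 starts are printed because long and short transcripts begin at different ones (RefSeq, GRCm38.p6, plus strand, motif matches in capitals). They lie at chr1:75375047-75375296, chr1:75381864-75382113, chr1:75385360-75385609 and chr1:75399835-75400084, in the order shown. The first holds an E-box 123 bases and a MEF2 match 51 bases before the start, and the second an E-box at 186. The third holds E-boxes at 247, 128, 69 and 30 and an MCAT match at 42 bases before the start, and the fourth an E-box at 166 and an MCAT match at 187. A match describes these letters and is not evidence of binding.
Speg-201 start: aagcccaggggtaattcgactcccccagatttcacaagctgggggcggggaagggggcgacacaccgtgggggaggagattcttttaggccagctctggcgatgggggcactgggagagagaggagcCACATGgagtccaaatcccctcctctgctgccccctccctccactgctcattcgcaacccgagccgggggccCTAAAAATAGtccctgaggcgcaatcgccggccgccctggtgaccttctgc
Speg-205 start: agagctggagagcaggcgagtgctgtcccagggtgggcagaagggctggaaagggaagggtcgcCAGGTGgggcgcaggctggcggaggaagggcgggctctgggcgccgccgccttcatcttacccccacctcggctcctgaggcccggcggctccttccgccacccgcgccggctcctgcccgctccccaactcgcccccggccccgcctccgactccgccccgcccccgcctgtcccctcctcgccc
Speg-211 start: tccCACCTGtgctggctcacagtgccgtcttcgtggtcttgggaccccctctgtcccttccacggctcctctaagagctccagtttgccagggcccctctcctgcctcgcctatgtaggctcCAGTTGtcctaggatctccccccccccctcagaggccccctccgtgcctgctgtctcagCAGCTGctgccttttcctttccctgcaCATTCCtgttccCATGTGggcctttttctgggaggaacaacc
Speg-204 start: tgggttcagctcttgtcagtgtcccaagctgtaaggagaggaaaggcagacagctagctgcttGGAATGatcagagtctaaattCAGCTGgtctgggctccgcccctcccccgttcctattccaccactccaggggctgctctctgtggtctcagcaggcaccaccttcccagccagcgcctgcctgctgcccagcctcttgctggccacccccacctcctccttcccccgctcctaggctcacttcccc

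The next question was whether MBNL delivery on continued dox moved these transcripts. In MBNL1 ventricle 3 of 8 passed the adjusted p against +dox, Jph1 and Speg higher and Mtm1 lower, against 8.95% of all genes. Without MBNL1 replicate 1 it was 2 of 8, Speg and Mtm1, against 5.97%. In MBNL2 ventricle 2 of 8 passed, Speg higher and Mtm1 lower, against 7.43%, and in MBNL1+MBNL2 ventricle the same 2, against 8.34%. With the fold requirement edgeR called 0 of 8 in each of the 3 cohorts, against 2.66%, 1.52% and 2.65% of all genes. At an unadjusted p under 0.05 the counts were 3, 4 and 5, against 24.6%, 22.3% and 22.1% of all genes, and DESeq2 called 0 in each.

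Speg counts in ventricle were 216, 241 and 244 CPM in MBNL1, 252, 235 and 253 CPM in MBNL2 and 287, 256 and 210 CPM in MBNL1+MBNL2. All lay above the highest +dox library. The log2 fold changes were 0.44, 0.52 and 0.54 (SE 0.11 each; adjusted p = 0.00890, 0.00347 and 0.00123), of which that of MBNL1 did not pass without +dox replicate 3 (0.33, adjusted p = 0.0766). On the log2(TPM + 1) scale limma passed the Speg difference in MBNL2 (0.41, adjusted p = 0.0408) and not in MBNL1 (0.15, adjusted p = 0.547) or MBNL1+MBNL2 (0.19, adjusted p = 0.459). Without MBNL1 replicate 1 the count-scale change of Speg in MBNL1 was 0.49 (adjusted p = 0.0132).

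Jph1 in ventricle had 38.4, 31.4 and 29.3 CPM in MBNL1, 30.6, 29.1 and 29.2 CPM in MBNL2 and 33.6, 32.1 and 29.4 CPM in MBNL1+MBNL2. Every one of these libraries was above every +dox library and all but MBNL1 replicate 1 were below every dox-free library. The log2 fold change was 0.31 (SE 0.09, adjusted p = 0.0197) in MBNL1, which was 0.19 (adjusted p = 0.180) without replicate 1 and did not pass without +dox replicate 1 or 3 (adjusted p = 0.0602 and 0.0767) or with the 18 ventricle libraries alone (0.0554). It was 0.16 (adjusted p = 0.287) in MBNL2 and 0.25 (adjusted p = 0.0616) in MBNL1+MBNL2. The MBNL1+MBNL2 change of Jph1 passed in 8 of 15 other settings, among them DESeq2 (0.27, adjusted p = 0.0275) and log2(TPM + 1) (0.28, adjusted p = 0.0432), and that of MBNL2 on log2(TPM + 1) (0.27, adjusted p = 0.0449). Cav3, Jph2, Dysf, Dnm2 and Bin1 did not pass in any vector cohort of the ventricle, with log2 fold changes from −0.19 (Cav3, MBNL1+MBNL2) to 0.25 (Dysf, MBNL2), by edgeR over all libraries. Dysf in MBNL2 passed on log2(TPM + 1) (0.39, limma adjusted p = 0.00733) and with library set as a covariate (0.25, adjusted p = 0.0427).

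In atria none of the 8 passed against +dox in MBNL1, MBNL2 or MBNL1+MBNL2 (0 each by edgeR, against 0.348%, 0.0104% and 0.686% of all genes). With the fold requirement the background was 0.130%, 0.00520% and 0.260%. At an unadjusted p under 0.05 the count was 1 in each cohort, against 7.91%, 4.32% and 10% of all genes, and DESeq2 called 0. Cav3 had 37.8, 40.8 and 33.7 CPM in MBNL1, 43.6, 41.5 and 35.1 CPM in MBNL2 and 31.3, 43.6 and 38.7 CPM in MBNL1+MBNL2. These overlapped the +dox libraries (36.2 to 50.5 CPM) and lay above all dox-free ones. Dnm2 had 84.1 to 91.6 CPM in MBNL1, 88.2 to 94.7 CPM in MBNL2 and 83.4 to 94.3 CPM in MBNL1+MBNL2, close to the 87.4 to 101 CPM of +dox.

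Set against +/–dox, the atrial vector cohorts differed in several of the 8 genes. In MBNL1 2 of 8 passed, against 4.60% of all genes, in MBNL2 4 of 8, against 11.0%, and in MBNL1+MBNL2 4 of 8, against 6.86%. Dnm2 was higher than in +/–dox by 0.46, 0.50 and 0.50 on the log2 scale (SE 0.07 each; adjusted p = 0.000125, 1.04e-05 and 2.44e-05) in MBNL1, MBNL2 and MBNL1+MBNL2. Jph1 was lower in the same order, with −0.33, −0.54 and −0.43 (SE 0.09 each; adjusted p = 0.0203, 8.99e-05 and 0.00171).

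Cav3 was higher than in +/–dox atria in MBNL2 (0.48, adjusted p = 0.00799) and MBNL1+MBNL2 (0.40, adjusted p = 0.0392), and had 0.39 (adjusted p = 0.0618) in MBNL1. Dysf was higher in MBNL2 (0.36, adjusted p = 0.0150) and MBNL1+MBNL2 (0.32, adjusted p = 0.0445). With the fold requirement edgeR called 0 of 8 in each, against 1.21%, 3.24% and 1.71%, with 3, 5 and 5 at an unadjusted p under 0.05 (17.0%, 24.1% and 20.0% of all genes) and 0 called by DESeq2.

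The ventricular vector cohorts were set against +/–dox in the same way. Jph2 was lower in MBNL1 (−0.41, SE 0.10, adjusted p = 0.0270), the 1 gene of 8 that passed there, against 2.67% of all genes. Without MBNL1 replicate 1 Jph2 did not pass (−0.37, adjusted p = 0.130), and Jph1 was the 1 gene that did (−0.34, adjusted p = 0.0393), against 1.10% of all genes. In MBNL2 2 passed, Jph1 lower (−0.38, SE 0.09, adjusted p = 0.00705) and Dnm2 higher (0.25, SE 0.07, adjusted p = 0.0327), against 5.39%. In MBNL1+MBNL2 none passed (0 by edgeR and by DESeq2, 3 at an unadjusted p under 0.05), against 1.77%. With the fold requirement edgeR called 0 in each, against 0.868%, 1.57% and 0.530%, with 5, 5 and 3 at an unadjusted p under 0.05 (16.9%, 18.3% and 14.7% of all genes) and 0 by DESeq2.

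Between the vector cohorts none of the 8 passed in either tissue (0 by edgeR and by DESeq2). In ventricle this stood against 0.0156% of all genes for MBNL1 and MBNL2, 0.00% for MBNL1+MBNL2 and MBNL1 and 0.0520% for MBNL1+MBNL2 and MBNL2, with 1, 0 and 1 of the 8 at an unadjusted p under 0.05 (10.4%, 8.80% and 8.33% of all genes). In atria it stood against 0.0104%, 0.00% and 0.0104%, with 2, 0 and 1 at an unadjusted p under 0.05 (5.77%, 2.36% and 5.36%).

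The chambers were compared in –dox mice, the cohort without induced CUGexp RNA. On the count scale 5 of 8 passed, against 42.6% of all genes in either direction, and these 5 were higher in ventricle than in atria. At over 1.5-fold it was 4 of 8, against 24.9% of all genes in either direction and 11.2% higher in ventricle. The log2 difference was 0.74 for Jph2 (SE 0.10, adjusted p = 4.93e-07), 0.64 for Jph1 (SE 0.09, adjusted p = 2.06e-07), 0.62 for Cav3 (SE 0.12, adjusted p = 9.32e-05), 0.62 for Dysf (SE 0.10, adjusted p = 5.04e-06) and 0.37 for Speg (SE 0.10, adjusted p = 0.00403). Without –dox atria replicate 3 the number over 1.5-fold was 2, with 4513 of all genes called, against 4795 with all libraries.

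This result depends on the scale. On log2(TPM + 1) the median of all genes moved to −0.32, from −0.03 on the count scale. The tests on that scale carry this shift of all genes: 11920 genes passed in either direction, against 8194 on counts. Jph2 (0.20, limma adjusted p = 0.178), Jph1 (0.095, 0.339), Dysf (0.082, 0.428) and Cav3 (0.072, 0.550) did not pass there. The next values are relative to the median and carry no p. Jph2 (0.52), Jph1 (0.41), Dysf (0.40) and Cav3 (0.39) lay above the median of all genes, as they did on counts (0.77, 0.67, 0.65 and 0.65). Speg, at 0.40 above the median on counts, lay at −0.11, and Mtm1 (0.03), Dnm2 (−0.071) and Bin1 (−0.16) were likewise near it. Before the median was taken off, limma passed these genes as lower in ventricle on log2(TPM + 1). The differences were −0.42 for Speg (adjusted p = 0.00455), −0.29 for Mtm1 (0.00747), −0.39 for Dnm2 (0.000346) and −0.48 for Bin1 (0.00102). For Speg that direction is opposite to the count scale. Speg was the 1 gene of 8 whose effective length differed between the chambers, against 1.04% of all genes, with a mean of 7.85 ± 0.141 kb in ventricle and 6.54 ± 0.264 kb in atria (SD, n = 3 each; log2 ratio 0.26, limma adjusted p = 0.00137).

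Partner genes were read from 5 further lists of T-tubule and membrane genes. The counts are of genes past the adjusted p, to be read against the 20.9% of all genes in ventricle and 15.9% in atria. Of 18 dyad and junctional genes, 4 were higher and 4 lower in –dox than in +dox ventricle, and 3 and 5 in atria. The median log2 fold changes were −0.17 and −0.05. Past 1.5-fold in ventricle were Ryr2, the ryanodine receptor (0.96, adjusted p = 2.24e-11), Cmya5, a dyad-associated protein (0.80, adjusted p = 5.47e-06), and Cacna1c, the L-type calcium channel pore (0.63, adjusted p = 2.24e-07), all higher, and Asph (−0.85, adjusted p = 2.04e-08) and Jph3, a junctophilin best known from brain (−3.24, adjusted p = 0.000420), both lower. In atria Ryr2 (0.69, adjusted p = 2.05e-08) and Cmya5 (0.88, adjusted p = 2.12e-06) were higher, and Casq2, cardiac calsequestrin (−0.62, adjusted p = 0.00107), and Jph3 (−1.93, adjusted p = 0.0130) lower.

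Of 15 relatives of the BAR, dynamin and myotubularin genes, 4 were higher and 0 lower in –dox ventricle (median 0.03), among them Dnm3 (0.64, adjusted p = 0.00855), and 1 was higher in atria, Dnm3 at 0.52 (adjusted p = 0.0492; median 0.05). Of 12 caveola coat genes, 4 were higher in ventricle (Ehd2, Cav1, Cav2 and Cavin1, with 0.59, 0.56, 0.46 and 0.23; median 0.22), while in atria 3 were higher, with Cavin4 at 0.60 (adjusted p = 0.00980), and 1 was lower (median 0.12). Cav1, Cav2 and Cavin1 are abundant in endothelium, whose summed markers moved with them as given above, and that part was not tested.

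Of 13 ferlin and membrane repair genes, Capn3, the muscle calpain, was higher (2.46, adjusted p = 1.93e-09) and Anxa5, an annexin, lower (−0.71, adjusted p = 1.16e-07) in –dox ventricle, with a list median of −0.05. In atria Capn3 (0.62, adjusted p = 0.0424), Myof and Trim72 were higher and Anxa5 lower (−0.91, adjusted p = 1.18e-09), with a median of 0.20. Summed skeletal muscle markers (5 genes) were 415 to 1021 CPM in –dox against 189 to 362 CPM in +dox ventricle, with Myh1 and Myh4 (2 of the 5 markers) at 0 in every –dox ventricle library, and their part in the Capn3 value was not tested. Of 9 other T-tubule genes none was past 1.5-fold in either tissue, and 2 in ventricle and 3 in atria were lower by the adjusted p alone, Ank2 and Sptbn1 in both.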

How the data were processed

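RNA from left ventricle and atria of 36 samples (6 cohorts, 3 animals each per tissue) was made into stranded poly(A) libraries from 250 ng of RNA and sequenced in a paired-end run of 150 cycles. The authors aligned the reads with STAR 2.7.10b to mm10 and quantified genes with RSEM 1.3.1, as their processing notes and methods state. One deposited table holds the expected count of each gene symbol as RSEM wrote it, without normalization. The other deposited table holds TPM, which RSEM corrects for transcript length and scales to the same total in each library. The strand setting of RSEM and the handling of genes that share a symbol are not given in the sources used here.

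Here expected counts were rounded to whole numbers, filtered with edgeR's filterByExpr (19231 genes left), scaled by TMM and fitted over all 36 libraries and 12 groups with edgeR 4.0.16 (quasi-likelihood test, Benjamini-Hochberg adjustment over all genes tested, R 4.3.3). A gene passed at an adjusted p under 0.05 and was called if the change was also at least 1.5-fold, the thresholds of the study. CPM is the count scaled to the TMM-normalized library size. Effective length, the expected count divided by TPM, was scaled per library to kb on 349 genes with 1 transcript and tested with limma 3.58.1 on its log2 over 12680 genes with a mean TPM of at least 1. The scripts were tested on simulated data with known changes. Total counts were 55031987 to 97091184 per library, and the number of animals rather than depth limits the precision. The labels name the samples biological replicates, so p-values within a tissue rest on the spread between animals. That spread was estimated over all 36 libraries, treated as independent. Per the study, ventricle and atria came from the same animals, but the labels do not tie replicate numbers to animals. The tests between chambers and of the interaction were therefore unpaired, and their p-values ignore the shared animals. For –dox ventricle against atria the deviations of same-numbered libraries correlated at 0.12, 0.15 and 0.24. The replicate block, a term per replicate number shared by all cohorts, is not a pairing by animal. It changed no count of the 8 genes called there.

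For gene positions the symbols were looked up in GENCODE M21 (GRCm38), where 53292 of 55291 (96.4%) had a match. Promoter windows came from RefSeq (GRCm38.p6), and those at hand here covered 6 of the 8 genes, all but Jph1 and Bin1.

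The members and all lists were chosen with earlier results of these data known. All 8 members are named. Of the 5 further lists, the genes named are those called in –dox against +dox, at most 4 per list and tissue by size of change, and Cacna1c and a few that passed the adjusted p were named after their values were seen. Genes most like a member were taken for the members called in –dox. Alternatives were DESeq2 1.42.0, RLE size factors, no filter, the 18 libraries of a tissue, limma on log2(TPM + 1) and log2(TPM + 0.1), no fold cutoff, a replicate block, library set as a covariate, a mean TPM of at least 5, and each library left out in turn. Leaving ventricle MBNL1 replicate 1 out of every fit and using library set A alone were added after seeing the data.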

Additional observations from a re-analysis of the deposited data

Results flagged for a closer look

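For 3 of the genes all libraries of a cohort stood on one side of the +dox mean in ventricle and on the opposite side in atria. This position was read for the listed genes only, and the share of all genes that meet it was not counted. The number is therefore a description and not a result about these genes. Dysf in –dox was at 0.28 in ventricle and −0.25 in atria on the log2 scale. The test of that difference, given above, had an adjusted p of 0.0586 by edgeR, and of 0.0258 with a replicate block. By edgeR it did not pass either on leaving out most of the single libraries, as given above. In +/–dox Dysf was at 0.30 and −0.28, and Jph2 at 0.44 and −0.20. Jph1 in MBNL2 was at 0.16 and −0.19, and in MBNL1+MBNL2 at 0.25 and −0.088, none of which passed by edgeR over all libraries. For the pairs other than Dysf in –dox the difference between the tissues was not tested.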

How the results depend on the processing

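Of the values of single genes in comparisons with +dox under all alternatives, 1843 stayed on their side of the threshold, of which 1705 kept their sign and 138 changed it without passing under either setting. A further 87 lost and 42 gained significance, and 2 changed sign with a pass: Speg in –dox atria, at −0.37 on log2(TPM + 1) and −0.37 on log2(TPM + 0.1) against 0.24 on counts, where TPM divides the count by the effective length. The comparison of chambers lies outside this tally. There Speg changed sign with a pass as well, at −0.42 (limma adjusted p = 0.00455) on log2(TPM + 1) against 0.37 (edgeR adjusted p = 0.00403) on counts. Bin1 did not pass the filter of a mean TPM of at least 5 and has no length value there. The numbers of genes called moved as follows. With no fold cutoff they were 7 in –dox and 7 in +/–dox ventricle, 3, 2 and 2 in MBNL1, MBNL2 and MBNL1+MBNL2 ventricle, 3 in –dox and 3 in +/–dox atria, and against +/–dox 1 (MBNL1) and 2 (MBNL2) in ventricle and 2, 4 and 4 in atria. In –dox ventricle the number was 2 with DESeq2 (1654 of all genes called), RLE size factors (1466) or set A alone (1370) and 0 on log2(TPM + 1) (714), against 1 (1461). In +/–dox ventricle it was 0 on log2(TPM + 1) (629 of all genes called) and on log2(TPM + 0.1) (1126), against 1 (1270). In –dox atria it was 2 within set A (895 of all genes called), against 1 (1005). In +/–dox atria it was 2 without the filter (629 of all genes called), with the 18 atrial libraries (986), on log2(TPM + 1) (554), on log2(TPM + 0.1) (835) and within set A (777), against 0 (767). Against +/–dox atria it was 1 for MBNL1+MBNL2 on log2(TPM + 0.1) and 1 for MBNL2 within set A, against 0. Between chambers it was 0 on log2(TPM + 1) (5754 of all genes called) and on log2(TPM + 0.1) (8312), against 4 (4795), where the median of all genes had moved to −0.32 on log2(TPM + 1). Changed lengths numbered 1 in –dox and 1 in +/–dox atria with a mean TPM of at least 5, against 2 each. Over all genes, log2(TPM + 1) called 714 in –dox and 629 in +/–dox ventricle, against 1461 and 1270. The cause of these moves was not tested.

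The replicate numbers do not pair the samples within a tissue: same-numbered correlations ran from −0.15 to 0.29 over 24 comparisons, 0 of which had all above 0.1, and in 4 each library correlated best with its own number. With a replicate block no number of called genes changed, and changed lengths numbered 2 in MBNL1 and 3 in MBNL1+MBNL2 ventricle, against 1 each. The added lengths were Cav3 in both (log2 ratio 0.020 and 0.023) and Dnm2 in MBNL1+MBNL2 (−0.013), all slight. Cav3 has 1 annotated transcript. The share of all genes with the block was not read, and without the block it was 22.8% in MBNL1 and 0.678% in MBNL1+MBNL2. By the adjusted p alone, edgeR with the block passed Jph1 in MBNL1+MBNL2 ventricle (0.25, adjusted p = 0.0444), Dysf in +/–dox atria (−0.28, adjusted p = 0.0358) and the Dysf interaction (adjusted p = 0.0258).

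Leaving out 1 library at a time gave 1 to 2 called genes in –dox ventricle (2 without any 1 +dox library or –dox replicate 2), 0 to 1 in MBNL2 ventricle (1 without +dox replicate 2), 0 to 1 in MBNL1+MBNL2 ventricle (1 without +dox replicate 2 or its own replicate 3), 0 to 1 in the interaction (1 without +dox replicate 1 or –dox replicate 3 of ventricle, or +dox replicate 3 or –dox replicate 1 of atria), 2 to 4 between chambers (2 without –dox atria replicate 3), 0 to 2 in –dox atria (0 without +dox replicate 1 or –dox replicate 3, 2 without +dox replicate 3) and 0 to 2 in +/–dox atria (1 without +dox replicate 2, 2 without +dox replicate 3 or its own replicate 2). Over all genes these fits called 1097 to 1470 in –dox ventricle, 696 to 1023 in –dox atria and 486 to 796 in +/–dox atria, against 1461, 1005 and 767. For MBNL2 ventricle, MBNL1+MBNL2 ventricle and the interaction the numbers over all genes were read with all libraries only. There 292, 509 and 147 of 19231 genes were called. For changed lengths the ranges were 1 to 3 in +/–dox, 1 to 2 in MBNL1, 0 to 2 in MBNL2 and 1 to 3 in MBNL1+MBNL2 ventricle, and 1 to 2 in –dox, 1 to 2 in +/–dox, 0 to 1 in MBNL1 and 0 to 1 in MBNL2 atria, with the highest ventricular numbers all without +dox replicate 3 and the other libraries named above.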
